A study of Mus musculus with 11 samples.

Results

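Cathepsins are proteases of endosomes and lysosomes, and 10 of their genes were followed here through the myeloid and vascular cells of the mouse cortex. They were read by name (Ctsa, Ctsb, Ctsc, Ctsd, Ctse, Ctsh, Ctsk, Ctsl, Ctss and Ctsz) from the 26921 genes of 11 droplet-based single-cell RNA-seq libraries, and all 10 were present. The libraries were made from myelin-depleted cortex of C57BL/6 mice in 4 groups, and the files hold counts of unique molecular identifiers (UMIs), 1 for each captured RNA molecule. There were 4 Juvenile libraries (postnatal day 10, 6 mice pooled in each), 3 Adult libraries (7 to 11 weeks, 6 mice pooled), 2 Aged libraries (18 months, 3 mice pooled) and 2 EAE libraries (7 to 11 weeks, 3 mice pooled). EAE, experimental autoimmune encephalomyelitis, was induced in female mice with a myelin oligodendrocyte glycoprotein peptide in complete Freund's adjuvant and with intravenous pertussis toxin, and tissue was taken at disease peak, whereas the other 3 groups were untreated. No adjuvant-only group is among the samples used here, so disease, adjuvant and toxin cannot be told apart, and pooling leaves no value for a single mouse. The comparison across age and disease asks how the lysosomal proteases of resident brain macrophages, infiltrating leukocytes and vessel cells differ in level.

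Most cathepsins are made as inactive proenzymes, sorted to the endolysosomal pathway and activated by cleavage in its acid lumen. Ctsb, Ctsl, Ctss and Ctsk encode cysteine proteases that cut within proteins, Ctsc, Ctsh and Ctsz encode cysteine proteases that trim peptide ends, Ctsd and Ctse encode aspartic proteases, and Ctsa encodes a serine carboxypeptidase that also holds lysosomal neuraminidase and beta-galactosidase in a stable complex. Microglia and the perivascular macrophages (PVM) that line brain vessels take up debris and are rich in lysosomes. Cathepsin S in addition degrades the invariant chain of MHC class II in antigen presenting cells. Cystatins and stefins are the endogenous inhibitors of the cysteine cathepsins.

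Libraries held 15755504 to 34326349 UMIs, and 50625 of 54646 barcodes passed the filters, with library medians of 2420 to 4199.5 UMIs per cell. Cells were clustered without the 10 cathepsins and named from marker genes. The types used most were endothelial cells (EC, 21143 cells), microglia (8769), PVM (2023), monocytes and macrophages (Mac, 1981, of which 973 and 878 were in EAE 1 and EAE 2), fibroblast-like cells (1167), pericytes (765), smooth muscle cells (SMC, 712), neutrophils (469) and dendritic cells (DC, 81). One of the 6 clusters named Mac (369 cells, 183 in EAE 1 and 173 in EAE 2) was led by haemoglobin genes and by genes of resident macrophages (Ccl8, C1qa, Ccl12, C1qb, Ccl7 and C1qc). Its 6 monocyte and macrophage markers summed to 2668 and 2772 CPM (UMIs per 1000000) in the EAE libraries, against 10523 and 10233 CPM in the other Mac. Adult 2 and Adult 3 differed by little more than sampling noise (chi-square per gene 1.37 in EC and 1.25 in microglia). They were counted as 1 sample in every test but the alternatives that took all libraries as separate (the replicate block among them). Adult 1 stood apart from both (19.9 to 20.8 in EC). Juvenile 1 and 2, Juvenile 3 and 4, both Aged and both EAE libraries were also close (1.28 to 2.12), and the pairs of Juvenile libraries differed from each other by 9.73 to 13.7. Nothing in the labels says which libraries share a batch or a pool, so p-values measure the spread between these libraries, which may be technical, and counts of calls across conditions are also given with each close pair summed. Pairs of libraries shared 10 to 113 cell barcodes, where random draws from all possible barcodes give 9.3 to 91.4. EAE 1 and EAE 2 shared the most, 113 against 91.4 expected, and Juvenile 1 and 2 shared 10 against 9.3. RNA of choroid plexus cells reached 52185 CPM in EC of Adult 1, against 20137 and 20676 CPM in Adult 3 and Adult 2 and 3762 to 9251 CPM in the other libraries.

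Microglia and PVM held the most cathepsin RNA. The 10 genes together made up 1.48% to 3.33% of all UMIs of microglia and 1.15% to 1.86% of those of PVM. The share was 0.531% to 1.11% in Mac, 0.331% to 0.52% in fibroblast-like cells, 0.222% to 0.416% in pericytes, 0.191% to 0.266% in EC and 0.125% to 0.371% in neutrophils over the libraries with at least 10 cells of the type. The ranges of microglia and PVM overlapped each other, and neither overlapped those of the vascular types. Levels are given as CPM, the UMIs of a gene among 1000000 UMIs of that cell type in a library, and only sums of at least 10 cells were used. The libraries count 3' ends, so CPM were not divided by gene length, and the plot of levels by cell type shows each gene on its own. A count of 0 allows a level of up to 0.607 to 4.91 CPM in microglia and up to 2.99 to 6.98 CPM in PVM of a library (3 counts of its total, counting error only).

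**Figure D1:**
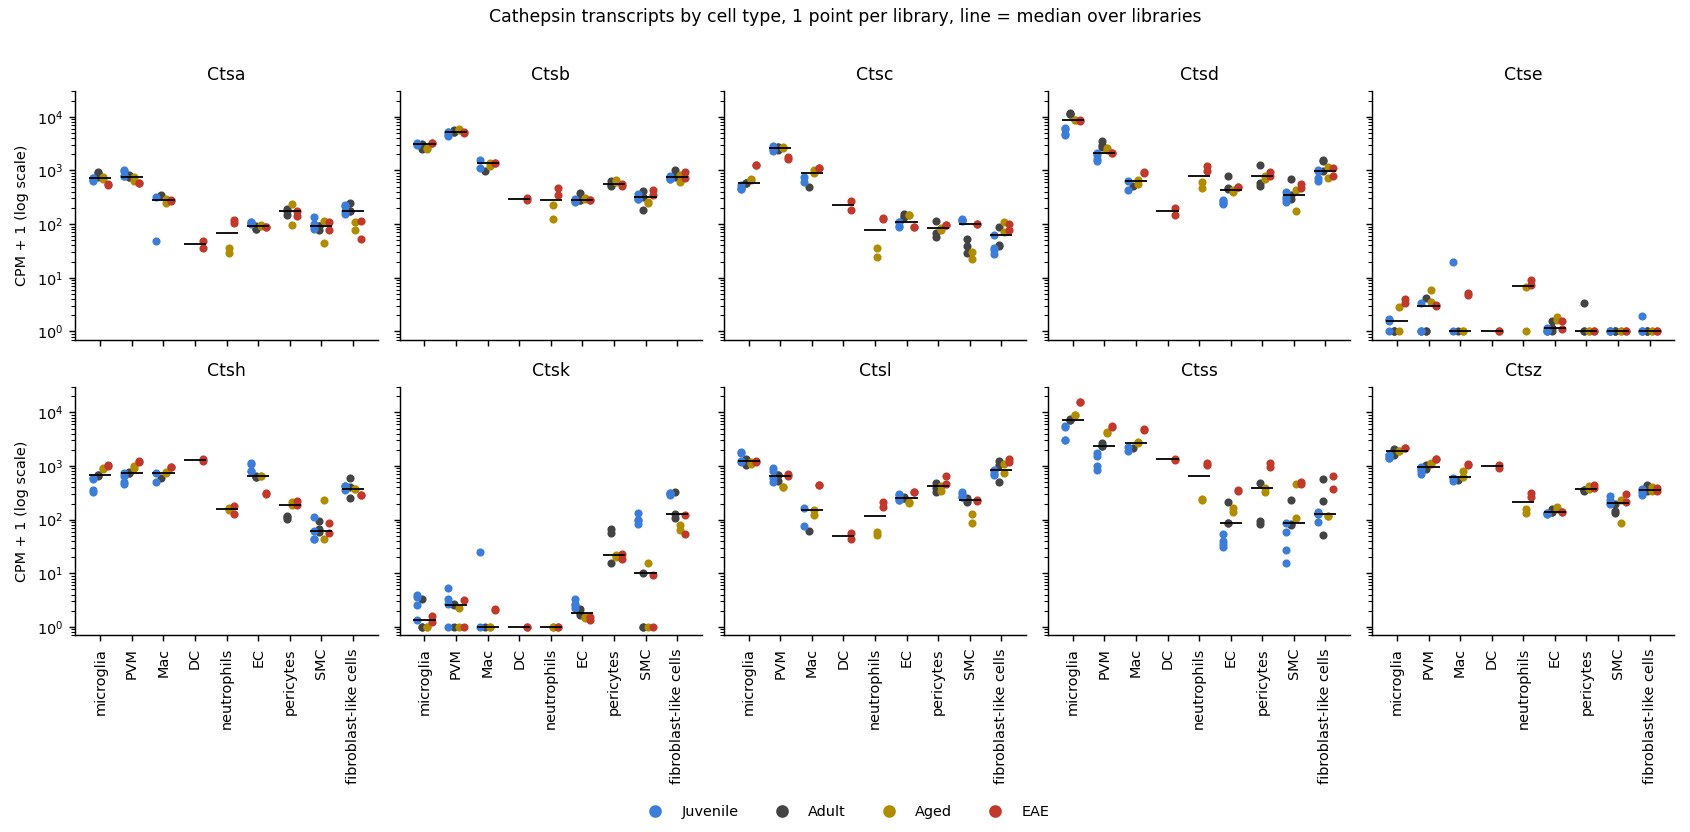
Level of the 10 cathepsin genes, 1 panel each, by cell type as CPM + 1 on a log axis, with 1 point per library of at least 10 cells (colour marks the group) and a line at the median over libraries. Ctsd and Ctss stand highest in microglia, Ctsb and Ctsc in PVM, and Ctsk in fibroblast-like cells.

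Ctsd (chr7:142375911-142388038, minus strand; GRCm38, GENCODE M21) encodes the main aspartic protease of lysosomes and had the highest median level of the 10 genes in microglia. It lay at 11199, 11469.9 and 11680.1 CPM in microglia of Adult 1 to 3, 8531 and 8698 CPM in Aged, 8531 and 8482 CPM in EAE and 4541, 4754, 5792 and 6072 CPM in Juvenile 1 to 4. The 4 juvenile values were below all others. Ctsd lay at 1525 to 3499 CPM in PVM and at 237 to 796 CPM in EC. The RefSeq start site used for its promoter window lies inside the GENCODE gene given above. The 39 bases shown end directly before that gene. They are shown because they carry CACGTG, the E-box core that the lysosomal transcription factors Tfeb, Tfe3 and Mitf bind, in capitals (GRCm38.p6, RefSeq, minus strand, 39 bases from 250 bases before the RefSeq start site on, chr7:142388039-142388077).
Ctsd: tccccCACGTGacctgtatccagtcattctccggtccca
CACGTG, which reads the same on both strands, was present in 2349 of 32851 promoter windows of 300 bases (7.15%), and in those of Ctsa, Ctsd and Ctsl among the 7 cathepsins with a window. The Ctsa and Ctsl matches and a further Ctsd match, at -98 bases from the RefSeq start site, lay in annotated exons. Another Ctsa window held no match. A match is a description and not a binding site.

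Ctss (chr3:95526786-95556403, plus strand) encodes the protease that removes the invariant chain from MHC class II and spanned a wide range of levels in microglia. Microglial levels were 3078, 3013, 5335 and 5544 CPM in Juvenile 1 to 4, 7141, 7321 and 7617 CPM in Adult 1 to 3, 9025 and 9082 CPM in Aged and 15382 and 15303 CPM in EAE. The groups did not overlap and were ordered juvenile, adult, aged and EAE, and Juvenile 1 and 2 lay well below Juvenile 3 and 4. PVM showed the same order of groups at lower levels, with 982, 826, 1564 and 1752 CPM in Juvenile, 2721, 2387 and 2332 CPM in Adult, 4153 and 4281 CPM in Aged and 5244 and 5639 CPM in EAE. The 100 bases before the start site are shown because they hold GAAA, any 2 bases and GAAA, a form of the element that interferon regulatory factors bind, in capitals (GRCm38.p6, RefSeq, plus strand, chr3:95526686-95526785).
Ctss: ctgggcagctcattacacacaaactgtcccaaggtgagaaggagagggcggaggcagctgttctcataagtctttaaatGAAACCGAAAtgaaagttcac
The motif starts 21 bases before the start site. On either strand it was present in 1131 of 32851 promoter windows (3.44%), and in none of the other 6 cathepsins with a window (Ctsa, Ctsc, Ctsd, Ctsk, Ctsl and Ctsz).

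Ctsb (chr14:63122462-63145923, plus strand), a cysteine protease that acts as both endopeptidase and carboxypeptidase, was the highest cathepsin of PVM in all 9 untreated libraries, while Ctss lay above it in EAE 1 and EAE 2. It lay at 5654, 5224 and 5294 CPM in PVM of Adult 1 to 3, 5639.5 and 5806 CPM in Aged, 4946 and 5254 CPM in EAE and 4594, 4396, 5251 and 5126 CPM in Juvenile, so the groups overlapped. Microglia held 2517 to 3263 CPM, with no overlap with PVM. Ctsa (chr2:164832873-164841032, plus strand) was at similar levels in both, 542 to 914 CPM in microglia and 572 to 1009.9 CPM in PVM. Ctsl (chr13:64359337-64370890, minus strand), an endopeptidase of broad expression, lay at 1050.00 to 1801 CPM in microglia, 507 to 1362 CPM in fibroblast-like cells and 409.9 to 924 CPM in PVM, neighbouring types whose ranges overlapped.

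Among the genes for exopeptidases, Ctsc (chr7:88278085-88310888, plus strand) encodes the dipeptidyl peptidase that activates the serine proteases of leukocyte granules, and its highest levels were in PVM. PVM held 2443, 2762 and 2759 CPM in Adult, 2711 and 2614 CPM in Aged, 1616 and 1781 CPM in EAE and 2576, 2262, 2534 and 2901 CPM in Juvenile. The EAE values were the lowest of the 11. Microglia went the other way, with 578, 576 and 576 CPM in Adult, 699 and 664 CPM in Aged, 443, 458, 479.6 and 535 CPM in Juvenile and 1288 and 1267 CPM in EAE, the highest values. Ctsz (chr2:174427493-174439039, minus strand), a carboxypeptidase, was highest in microglia at 1379.7 to 2144 CPM. Ctsh (chr9:90054152-90076089, plus strand), an aminopeptidase, was, apart from the nearly absent Ctsk and Ctse, the cathepsin whose levels in EC (302 to 1155 CPM) overlapped those of microglia (332 to 1029 CPM) and PVM (459 to 1224 CPM). In EC it lay at 809, 807, 1091 and 1155 CPM in Juvenile, 610.1, 647 and 614 CPM in Adult, 651 and 664 CPM in Aged and 314 and 302 CPM in EAE. The juvenile values were above, and the EAE values below, all adult and aged values.

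Ctsk and Ctse were nearly absent from myeloid cells. Ctsk (chr3:95499256-95509362, plus strand), which encodes a collagen-degrading protease known from osteoclasts, lay at 0 to 2.96 CPM in microglia and 0 to 4.38 CPM in PVM. Fibroblast-like cells held 312, 296, 286 and 314 CPM in Juvenile, 107, 126 and 328 CPM in Adult, 77.3 and 61.9 CPM in Aged and 121 and 52.1 CPM in EAE. SMC held 83.8, 95.9, 98.5 and 132 CPM in Juvenile and 0 to 9.26 CPM in Adult, where 21, 23 and 34 cells held 0, 0 and 1 Ctsk UMIs. A count of 0 allows a level of up to 2.86 to 64.05 CPM in SMC of a library. The juvenile cells of this cluster differed in their markers, with 7 pericyte markers at a mean of 2647 to 4113 CPM per gene against 721 to 1464 CPM in adult SMC. The 5 SMC markers were at 2835 to 4338 against 5716 to 6505 CPM, so that pericyte markers exceeded them in Juvenile 4, and the 7 fibroblast markers at 72.8 to 105 against 19.8 to 35.7 CPM. The part of these differences in Ctsk was not tested. At least 1 Ctsk UMI was found in 683 of 991 juvenile fibroblast-like cells (68.9%, median 4237 UMIs per cell), 187 of 524 juvenile SMC (35.7%, median 4880.5) and 40 of 3137 juvenile EC (1.28%, median 5973), and after thinning each cell to 1500 UMIs the shares were 35.2%, 14.1% and 0.323%. Ctse (chr1:131638306-131675505, plus strand), an aspartic protease gene of erythroid and gastric cells, was at most 3.03 CPM in microglia, 4.89 CPM in PVM and 0.893 CPM in EC. Its highest levels were in red blood cells, 87.1 to 512 CPM over 5 libraries, where 21 of 70 cells of the Aged libraries had a UMI (30.00%, median 9018 UMIs) against 12 of 5767 Aged EC (0.208%, median 2335 UMIs).

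PVM and microglia of the same libraries were compared with the library as a block. All 8 tested cathepsins differed, 4 higher and 4 lower in PVM, and the test called 48.6% of all genes (edgeR's quasi-likelihood test, Benjamini-Hochberg adjusted p under 0.05). Ctse and Ctsk did not pass the filter on low counts. Ctsc (log2 fold change 2.03 ± 0.25 (SE), adjusted p = 5.43e-05) and Ctsb (0.95 ± 0.10, adjusted p = 1.22e-08) were higher in PVM by the most. Ctsh (0.38 ± 0.08, adjusted p = 0.000175) and Ctsa (0.26 ± 0.08, adjusted p = 0.00986) were higher by less, and Ctsa lost its call with close pairs of libraries summed (adjusted p = 0.0967), without TMM scaling (adjusted p = 0.225), without a filter on low counts and with another clustering of the cells, on 12 components at resolution 0.5 (0.0013 to 0.225 over all alternatives), while the other 7 were called under every alternative. Ctsd (-1.62 ± 0.09, adjusted p = 7.18e-14), Ctss (-1.38 ± 0.10, adjusted p = 1.96e-11), Ctsl (-0.97 ± 0.09, adjusted p = 7.46e-10) and Ctsz (-0.67 ± 0.08, adjusted p = 1.11e-07) were lower in PVM. The aspartic protease gene and the gene of the invariant chain protease were thus higher in microglia, and Ctsb and Ctsc in PVM. With library totals in place of TMM scaling, 3 were called higher and 4 lower, and of all called genes 1927 of 5442 were higher against 2529 of 5101 with TMM. The median over the tested cathepsins was -0.21 (median over all genes -0.02).

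PVM of the 3 untreated groups fell into Lyve1+ clusters and 1 cluster with high MHC class II (MHCII+), which held 2 to 13 cells in a Juvenile library, 17 to 21 in an Adult library and 60 and 62 in the Aged libraries. The MHCII+ cluster held less of the PVM markers (7 genes, 880.1 to 1947 CPM summed, against 8794 to 15806 CPM in Lyve1+ PVM of a library). It held more of the monocyte and macrophage markers (6 genes, 219 to 615 CPM against 2.23 to 72.4 CPM, with Ccr2 at 156 to 365 CPM and F10 at 0). In Juvenile 4 its microglial markers (7 genes, 1488 CPM) were above its PVM markers (880.1 CPM). It was named from clusters that joined the 3 ages, and the part of other macrophages in its cathepsin levels was not tested. Of 8 tested cathepsins 1 was higher and 5 were lower in MHCII+ PVM (28.5% of all genes called). Ctss was the higher one (log2 fold change 1.12 ± 0.13 (SE), adjusted p = 1.76e-07), with 4713, 3777 and 3653 CPM against 2509.8, 2113 and 2169.6 CPM in Lyve1+ PVM of Adult 1 to 3, 5475 and 5889 CPM against 3754 and 3729 CPM in Aged 1 and 2, and 5029 CPM in the 13 cells of Juvenile 4 against 1390.4 CPM. Ctsb (-1.26 ± 0.11, adjusted p = 1.77e-13), Ctsl (-1.19 ± 0.15, adjusted p = 1.12e-08), Ctsd (-1.13 ± 0.14, adjusted p = 2.43e-06), Ctsa (-0.97 ± 0.13, adjusted p = 6.24e-08) and Ctsc (-0.57 ± 0.11, adjusted p = 7.44e-05) were lower. Ctsh (0.13 ± 0.12, adjusted p = 0.459, 95% interval -0.11 to 0.38) and Ctsz (0.21 ± 0.12, adjusted p = 0.221, -0.03 to 0.45) did not pass the test. Ctsb spanned 1333 to 2935 CPM in MHCII+ and 4499.8 to 7296 CPM in Lyve1+ PVM, without overlap. With close pairs summed, Ctsd lost its call (adjusted p = 0.0562, 4.47e-28 to 0.0562 over all alternatives), and the other calls were kept in every alternative. The small MHCII+ clusters, of as few as 13 cells in a library used, limit the precision of single values.

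**Figure D2:**
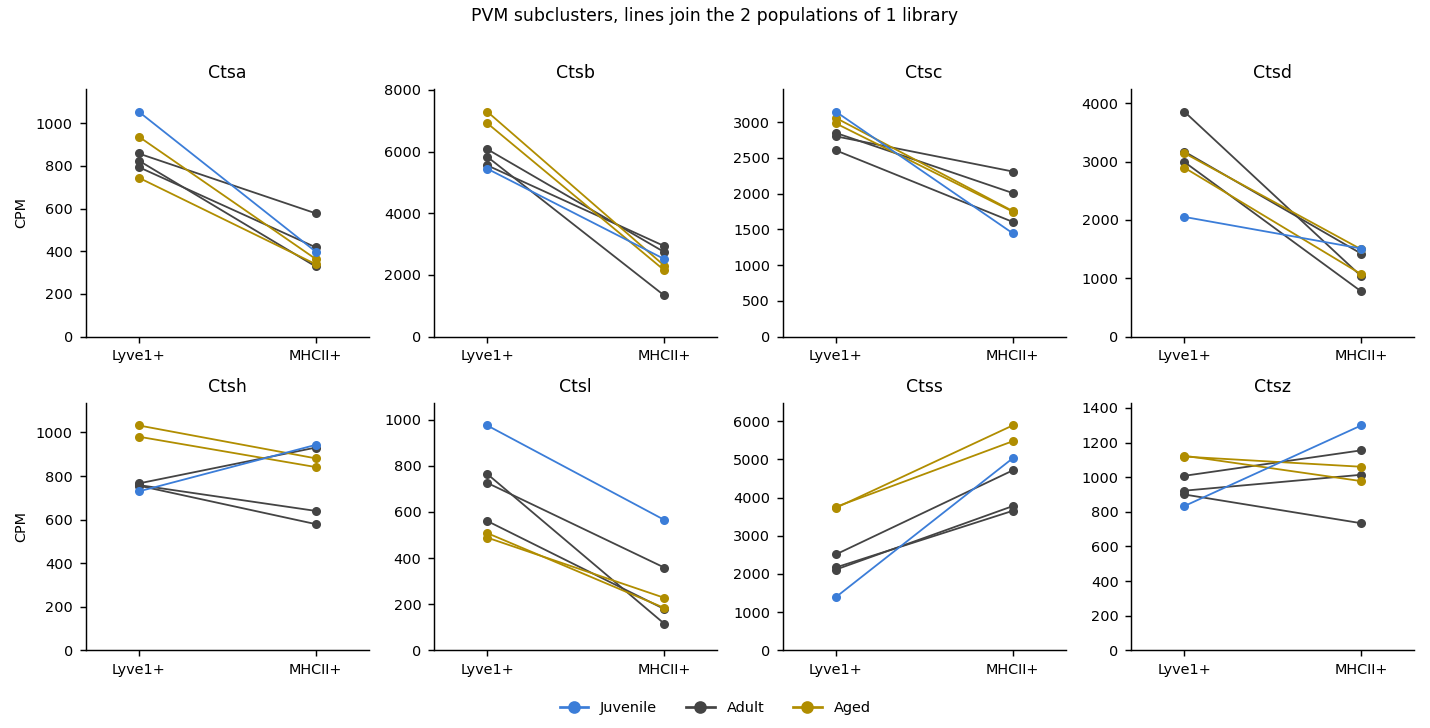
Levels of the cathepsins in Lyve1+ and MHCII+ PVM, in CPM, with 1 point per library of at least 10 cells (colour marks the group) and lines that join both populations of a library. Ctss rises from Lyve1+ to MHCII+ PVM in every joined library, and Ctsb falls.

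Mac, neutrophils and DC were numerous in the EAE libraries, so their cathepsins were compared there. The 2 EAE libraries were close to each other, so the fits mainly reflect counting noise, no p-values of them are printed, and both library values are given instead. In Mac, Ctss was again the highest cathepsin (4683 and 4893 CPM), followed by Ctsb (1374 and 1395 CPM) and Ctsc (1123 and 1128 CPM). Compared with microglia of the same libraries, 9 of 9 tested genes differed (69.1% of all genes called). Ctsd was 877 and 914 CPM in Mac against 8531 and 8482 CPM in microglia (log2 fold change -2.77). Ctss (-1.20), Ctsl (-0.97), Ctsb (-0.74), Ctsa (-0.55) and Ctsz (-0.52) were also lower in Mac. Ctsh (0.37) and Ctsc (0.29) were higher in the TMM-scaled fit, although their CPM were lower in Mac (942 and 949 against 1029 and 1000.01 CPM for Ctsh). Both turned lower when only library totals were used (-0.10 and -0.18). That scaling moved the median of all genes to -0.52, and under it no cathepsin was higher and 8 were lower in Mac. It called 8675 of 11356 genes, of which 2379 were higher in Mac. Ctse was called higher in Mac at 4.22 and 3.85 CPM against 2.37 and 3.03 CPM, a call made neither by DESeq2 nor with library totals. Without the Mac cluster led by haemoglobin and C1q genes, Ctsd was 798 and 787 CPM, Ctsb 1222 and 1209.9 CPM and Ctss 4479 and 4629.5 CPM in Mac. All calls of the 3 comparisons with Mac, 9, 8 and 6, were kept.

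Neutrophils, which carry serine proteases in their granules, had less cathepsin RNA than Mac. In EAE, 7 of 9 tested cathepsins were lower and 1 higher in neutrophils (37.4% of all genes called). The higher one was Ctsd, with 1233 and 987 CPM against 877 and 914 CPM in Mac (log2 fold change 0.54). Ctsc (121 and 127 CPM) and Ctsh (180.1 and 125 CPM) were lower by the most (-2.95 and -2.41). In neutrophils of the Aged libraries, Ctsd lay at 604 and 477 CPM and Ctss at 238 and 227 CPM, below the EAE values of 1062 and 1124 CPM. DC, which led with Fscn1, Ccl22 and Ccr7, numbered 36 and 43 cells in EAE 1 and EAE 2. A cluster of 126 cells led by Cd209a scored for both DC and Mac and was set aside as mixed, so it is not among these DC. A Mac cluster (143 and 126 cells in EAE 1 and EAE 2) had H2-DMb2 among its leading genes. With the other clustering, H2-DMb2 led with Cd209a and Mgl2 in a cluster set aside as mixed between Mac and DC. The part of DC in Mac was not tested. Of 9 tested cathepsins 6 were lower in DC than in Mac and none was higher (22.2% of all genes called). Ctsl was at 41.9 and 55.8 CPM (log2 fold change -3.32) and Ctsd at 197 and 147 CPM (-2.53). Ctsh at 1239 and 1343 CPM (0.30) and Ctsz at 1059 and 933 CPM (-0.25) did not differ past the threshold from Mac. With library totals in place of TMM, Ctsh was called higher in DC.

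In EC, 8 of 10 tested cathepsins were called lower than in microglia and none higher (70.6% of all genes called). Ctss (log2 fold change -6.16 ± 0.25 (SE), adjusted p = 3.96e-11) and Ctsd (-4.34 ± 0.11, adjusted p = 9.17e-13) were lower by the most, followed by Ctsz (-3.68), Ctsb (-3.42), Ctsa (-2.91), Ctsc (-2.57) and Ctsl (-2.36). The call of Ctse (-2.01) rested on few UMIs of the EAE libraries. Microglia held 11 and 15 Ctse UMIs in EAE 1 and EAE 2 and 0 to 3 in each other library, and EC held 0 to 7. In Adult 1 to 3, microglia held 0 and EC 2, 1 and 0, so the direction was not seen there, and without EAE 1, without EAE 2 or with close pairs summed Ctse did not pass the filter on low counts. Ctsh did not differ past the threshold (-0.06 ± 0.34, adjusted p = 0.887, 95% interval -0.74 to 0.62). Some myeloid RNA was present in all vascular sums. The summed level of 9 myeloid genes (C1qa, C1qb, C1qc, Tyrobp, Fcer1g, Csf1r, Cx3cr1, Aif1 and Lyz2) in EC was 0.634% to 1.83% of that in microglia of the same library in Juvenile, 1.54% to 3.87% in Adult, 1.85% to 2.25% in Aged and 2.74% to 2.80% in EAE. Ctss in EC was 0.539% to 1.74%, 1.15% to 2.98%, 1.52% to 1.84% and 2.21% to 2.30% of its microglial level in the same 4 groups, and in each of the 11 libraries it was below the share of the myeloid genes. The part of such RNA in the Ctss counts of EC was not tested. Ctsh in EC, by contrast, was 89.9% to 96.6% of the microglial level in Adult, and Ctsl 18.9% to 24.2%, Ctsc 22.98% to 26.6% and Ctsa 8.81% to 12%, above the share of the myeloid genes.

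**Figure D3:**
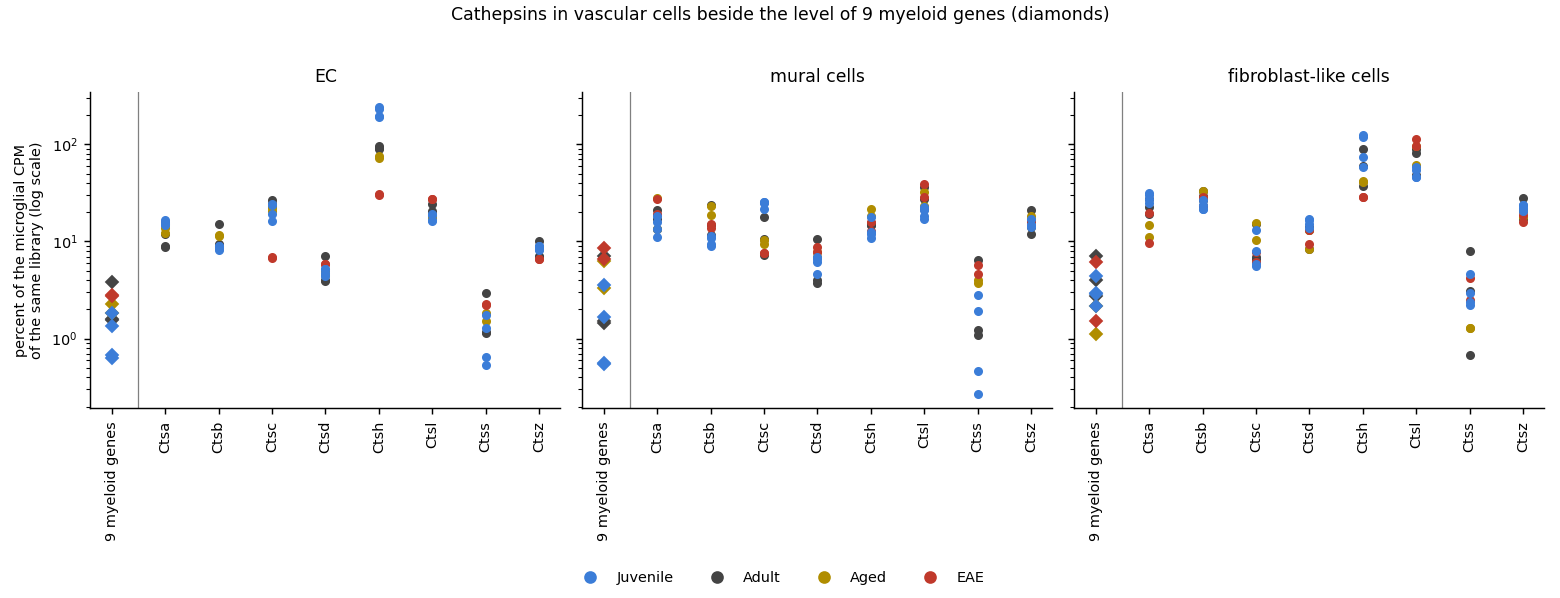
Level of 8 cathepsins in EC, mural cells and fibroblast-like cells as a percent of their level in microglia of the same library (log axis, circles, 1 per library, colour marks the group), with the same share for the summed 9 myeloid genes (diamonds). Ctss of EC lies below the myeloid genes of the same library in all 11 libraries and in fibroblast-like cells on either side of them, while Ctsh and Ctsl of EC lie above them.

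Fibroblast-like cells, the collagen-producing cells of the perivascular space and meninges, differed from EC in 9 of 9 tested cathepsins (52.3% of all genes called). Ctsk led (log2 fold change 7.21 ± 0.19 (SE), adjusted p = 1.02e-20), followed by Ctsl (1.48 ± 0.11, adjusted p = 2.02e-11), Ctsb (1.15 ± 0.10, adjusted p = 2.96e-10), Ctsz (1.11 ± 0.10, adjusted p = 1.01e-09) and Ctsd (1.08 ± 0.13, adjusted p = 3.17e-07). Ctsc (-1.33 ± 0.16, adjusted p = 1.44e-07) and Ctsh (-1.12 ± 0.13, adjusted p = 5.57e-08) were lower than in EC. Ctss and Ctsa were also called higher (0.73 ± 0.27, adjusted p = 0.0383 and 0.44 ± 0.16, adjusted p = 0.0274), and these calls were lost without Adult 1 (adjusted p = 0.0944 and 0.0713) and in several other alternatives (0.00227 to 0.1 and 0.000568 to 0.125 over all alternatives), while the other 7 were called in every alternative. Mural cells, the pericytes and SMC of the vessel wall, differed from EC in 6 of 9 tested genes (48.5% of all genes called). Ctsk (5.30 ± 0.25, adjusted p = 7.41e-14) and Ctsz (0.78 ± 0.09, adjusted p = 8.01e-08) were higher and Ctsh (-2.94 ± 0.39, adjusted p = 0.000121) was lower. The other calls were Ctsb (0.32 ± 0.10, adjusted p = 0.00744), Ctss (0.55 ± 0.20, adjusted p = 0.0327) and Ctsc (-0.44 ± 0.17, adjusted p = 0.0442). With SMC alone Ctsb changed direction (-0.07, adjusted p = 0.738), and the calls of Ctss, Ctsc and Ctsz (adjusted p = 0.61, 0.163 and 0.0575) were lost. Ctsk and Ctsh kept theirs, and Ctsl was called lower (-0.37, adjusted p = 0.0458), so that 3 of 9 were called where 43% of all genes were. Without Adult 1 those of Ctss (adjusted p = 0.0892) and Ctsc (adjusted p = 0.0839) were lost as well, as they were in several other alternatives (0.000778 to 0.61 and 0.0225 to 0.579 over all alternatives). With library totals in place of TMM, 7 were called higher and 1 lower, against 4 and 2 (47.5% of all genes called). Myeloid genes in mural cells were at 1.43% to 7.13% of the microglial level in Adult and 6.60% to 8.53% in EAE, and their part in the Ctss values was not tested.

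Across conditions, each of 5 cell types (microglia, PVM, EC, mural cells and fibroblast-like cells) was fitted over all 4 groups and compared with Adult. Adult counted as 2 samples in these tests. Of 43 tested pairs of a cathepsin and a cell type, 15 were called between Juvenile and Adult (3 higher and 12 lower in Juvenile), none between Aged and Adult, and 13 between EAE and Adult (8 higher and 5 lower in EAE). These are 34.9%, 0% and 30.2% of the pairs, where 26.6%, 2.91% and 19.9% of all genes were called over the same 5 types. With close pairs of libraries summed, which leaves 1 Aged and 1 EAE sample, 5, 0 and 3 of 45 tested pairs were called, of which 4 and 2 were among the 15 and 13, and that fit called 8.89%, 0.0807% and 4.02% of all genes. The lone sample is then assumed to vary like the other groups. Fold changes are from TMM-scaled fits and can differ from the ratio of CPM, which are scaled to the total alone: using totals alone moved the median log2 fold change of all genes to -0.21 in microglia, -0.18 in PVM and -0.18 in EC of EAE, to 0.13 in PVM and -0.12 in EC of Juvenile, and to -0.12 in PVM of Aged. With totals alone 4 cathepsin calls in EAE were higher and 7 lower, and of all called genes 1031 of 3303 were higher in EAE microglia (1502 of 2917 with TMM), 591 of 1558 in EAE PVM (840 of 1526) and 1277 of 4089 in EAE EC (2169 of 3820). In sums of a cell type, fewer cells with RNA of a gene and less RNA per cell cannot be told apart.

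**Figure D4:**
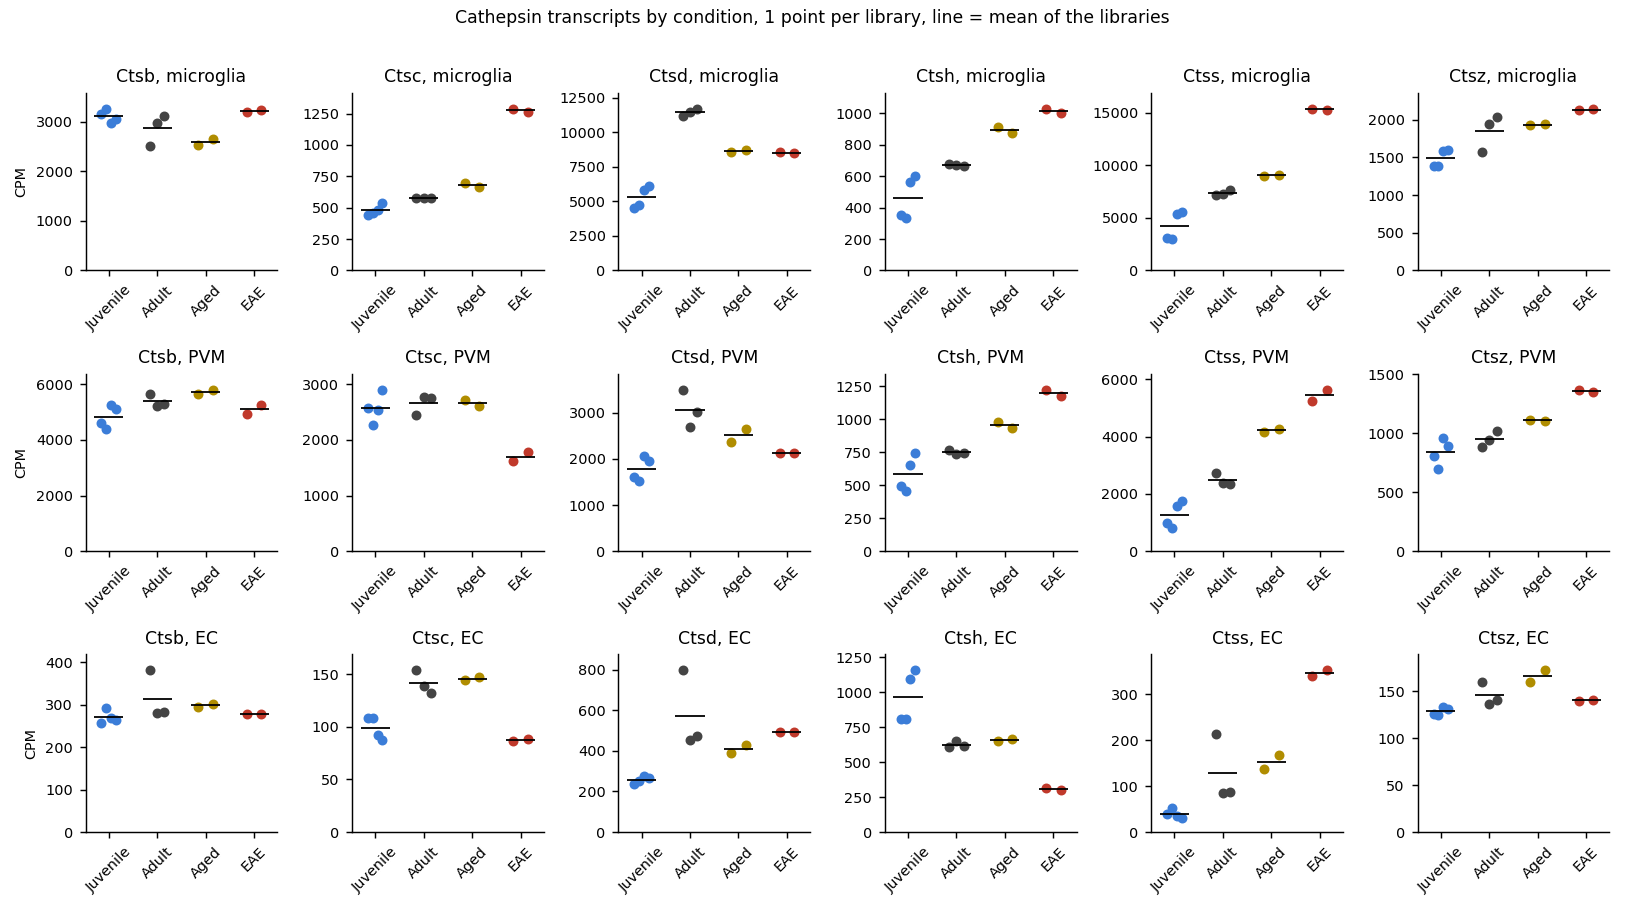
Levels of Ctsb, Ctsc, Ctsd, Ctsh, Ctss and Ctsz by group (Juvenile, Adult, Aged, EAE) in microglia, PVM and EC, in CPM on axes that start at 0, with 1 point per library and a line at the mean of the libraries. Ctsd lies lowest in Juvenile in all of these types, and Ctsc of EAE lies above Adult in microglia and below it in PVM and EC.

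In juvenile microglia 4 of 8 tested cathepsins were lower than in adult microglia and none was higher, where 24.7% of all genes were called. Ctsd was lower by the most (log2 fold change -1.15 ± 0.13 (SE), adjusted p = 1.56e-05), at 4541 to 6072 CPM against 11199 to 11680.1 CPM. Ctss (-0.82 ± 0.26, adjusted p = 0.0429), Ctsa (-0.33 ± 0.11, adjusted p = 0.043) and Ctsc (-0.31 ± 0.11, adjusted p = 0.0497) were called close to the threshold. Ctss and Ctsc lost the call without Adult 1 (adjusted p = 0.201 and 0.188), and all 3 without most other single libraries and with close pairs summed, so that their adjusted p ranged from 2.39e-05 to 0.201, 0.00509 to 0.43 and 0.01 to 0.443 over the alternatives. Ctsd was called in every alternative (5.75e-19 to 0.0137), also with close pairs summed (adjusted p = 0.0137). Ctsb (0.12 ± 0.10, adjusted p = 0.43, 95% interval -0.08 to 0.32) and Ctsl (0.31 ± 0.18, adjusted p = 0.247, -0.05 to 0.66) did not pass the test. The median over the tested cathepsins was -0.32 (median over all genes -0.02). In PVM, Ctsd (-0.96 ± 0.13, adjusted p = 8.43e-06) and Ctsh (-0.49 ± 0.15, adjusted p = 0.0404) were lower, against 11.4% of all genes called, Ctsd in every alternative (8.32e-14 to 0.032), while Ctsh lost its call without Adult 1 (adjusted p = 0.188), without 6 other single libraries, with close pairs summed, by DESeq2 and with library totals (0.00095 to 0.298 over all alternatives). Ctss in juvenile PVM (826 to 1752 CPM against 2332 to 2721 CPM in Adult) missed the threshold (-1.12 ± 0.30, adjusted p = 0.0636). It was called by DESeq2 (adjusted p = 0.000326), with close pairs summed (adjusted p = 0.0463) and without MHCII+ PVM (adjusted p = 0.00304). Ctsd was thus called lower in both macrophage types.

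Juvenile EC had lower Ctsd (log2 fold change -1.19 ± 0.16 (SE), adjusted p = 0.000131), Ctss (-1.82 ± 0.33, adjusted p = 0.00304) and Ctsc (-0.46 ± 0.09, adjusted p = 0.00164) and higher Ctsh (0.73 ± 0.16, adjusted p = 0.0035) and Ctsa (0.39 ± 0.09, adjusted p = 0.00346), 5 of 9 tested genes against 43.3% of all genes. Ctsd in EC was 237, 249, 277 and 267 CPM in Juvenile and 796, 452 and 473 CPM in Adult, where Adult 1 was the highest. Ctss in EC was 39.5, 52.5, 34.6 and 29.9 CPM in Juvenile and 213, 85.5 and 87.2 CPM in Adult, again highest in Adult 1. Without Adult 1 the log2 fold changes shrank to -0.78 for Ctsd (adjusted p = 0.000208) and -1.09 for Ctss (adjusted p = 0.00212). The summed 9 myeloid genes moved with both, at 245 to 528 CPM in juvenile and 561 to 1339 CPM in adult EC. Ctsd in EC was 4.40% to 5.24% of its microglial level in Juvenile and 3.94% to 7.11% in Adult, above the share of the myeloid genes in both groups. RNA of choroid plexus cells, which themselves held Ctsd at 1284 to 1904 CPM, moved with them too, at 3762 to 9251 CPM in juvenile and 20137 to 52185 CPM in adult EC. The part of myeloid or choroid plexus RNA in these differences was not tested. With close pairs summed, Ctsd alone was called (adjusted p = 0.0135), and in every other alternative all 5 were. In mural cells 4 of 9 were called, against 26.1% of all genes. Ctsk was higher in juvenile mural cells (1.91 ± 0.33, adjusted p = 0.000606), at 84.6, 95.9, 97.9 and 129.95 CPM against 13.04, 42.3 and 32.3 CPM in Adult, without overlap, and was called in every alternative (9.03e-09 to 0.0296), among them close pairs summed (adjusted p = 0.0296) and SMC alone (log2 fold change 4.28, adjusted p = 0.00171). The setting with SMC alone leaves out adult pericytes, which held 6, 9 and 6 Ctsk UMIs in Adult 1 to 3. Adult SMC held 0, 0 and 1, so the size of that Ctsk fold change rests on 1 adult UMI. The part of cell makeup in it was not tested. Ctsd (-1.43 ± 0.30, adjusted p = 0.00432), Ctsb (-0.72 ± 0.19, adjusted p = 0.00965) and Ctsh (-0.92 ± 0.29, adjusted p = 0.029) were lower. Adult mural cells were mostly pericytes (198, 82 and 67 cells) and juvenile ones nearly all in the SMC cluster (at most 2 pericytes in a library), and with SMC alone these 3 calls were lost (adjusted p = 0.117, 0.943 and 0.528). Without Adult 1 they were lost too (adjusted p = 0.0886, 0.219 and 0.148), as they were with close pairs summed, and Ctsh also lost its call in 5 other alternatives. The juvenile SMC cluster held Kcnj8, a pericyte marker, at 579 to 1208 CPM, against 57.7 to 139 CPM in adult SMC. Fibroblast-like cells gave no call in 9 tests with edgeR (3.84% of all genes called), while DESeq2 called Ctss (adjusted p = 0.0176). In the edgeR fit of these cells 3 of the 9 had an unadjusted p under 0.05, as did 652 of all 3334 genes. Ctsk there was 312, 296, 286 and 314 CPM in Juvenile and 107, 126 and 328 CPM in Adult (0.80 ± 0.26, adjusted p = 0.115), so Adult 3 alone reached the juvenile values.

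At 18 months no cathepsin was called in any of the 5 types by edgeR as used here or by DESeq2. Some alternatives of the edgeR fit made calls. With the replicate number as a block these were Ctsh in microglia (adjusted p = 0.026) and PVM (adjusted p = 0.0349) and Ctss in PVM (adjusted p = 0.00676), where 4.78% of all genes were called. Without a filter on low counts they were Ctsd in EC (adjusted p = 0.00501) and Ctss in fibroblast-like cells (adjusted p = 0.0277, 2.66% of all genes), both lower in Aged, and without Juvenile 2 Ctss in PVM (adjusted p = 0.0459, 2.95% of all genes). The share of all genes called was 1.97% in microglia, 3.22% in PVM, 5.51% in EC, 0.032% in mural cells and 0.03% in fibroblast-like cells. In the same order, 1 of 8, 2 of 8, 1 of 9, 1 of 9 and 3 of 9 tested cathepsins had an unadjusted p under 0.05. Of all genes, 1812 of 11254, 1191 of 8328, 3148 of 13710, 464 of 6241 and 293 of 3334 did. Ctss in PVM was 4153 and 4281 CPM in Aged against 2721, 2387 and 2332 CPM in Adult, without overlap (0.82 ± 0.36, adjusted p = 0.37, 95% interval 0.12 to 1.52). In Lyve1+ PVM alone it was 3754 and 3729 CPM against 2509.8, 2113 and 2169.6 CPM, so Aged also lay above Adult outside the MHCII+ cluster. Markers of DC moved with it in these Lyve1+ PVM (6 genes, 1429 and 1599 CPM summed in Aged against 154 to 235 CPM in Adult), nearly all from Cd209a (1415 and 1579.5 CPM against 139 to 211 CPM), while Flt3, Xcr1, Clec9a and Ccr7 were at most 5.30 CPM in either group. Markers of monocytes and macrophages were at 51.9 and 72.4 CPM against 19.9 to 28.5 CPM, and the part of either in Ctss was not tested. Ctsd in microglia was 8531 and 8698 CPM in Aged, below the 11199 to 11680.1 CPM of Adult (-0.38 ± 0.15, adjusted p = 0.236, -0.68 to -0.08). Ctsh was 912 and 875 CPM in Aged against 664 to 679 CPM in Adult microglia (0.44 ± 0.27, adjusted p = 0.479) and 978 and 932 CPM against 733 to 766 CPM in PVM (0.44 ± 0.18, adjusted p = 0.231). In fibroblast-like cells (36 and 39 cells in Aged, 18 to 23 in an Adult library), Ctsa was 77.3 and 109.98 CPM in Aged against 173, 251 and 172 CPM in Adult (-1.13 ± 0.37, adjusted p = 0.381). Ctsk there was 77.3 and 61.9 CPM against 107, 126 and 328 CPM (-1.32 ± 0.38, adjusted p = 0.315), and both were without overlap. Both rest on few UMIs, 10 and 16 in Aged against 13, 20 and 10 in Adult for Ctsa. For Ctsk these were 10 and 9 against 8, 10 and 19. Ctss of these cells overlapped between the groups, at 116 and 117 CPM against 574, 226 and 51.7 CPM (-1.57 ± 0.57, adjusted p = 0.485). In EC, Ctsd was 388 and 430.2 CPM against 796, 452 and 473 CPM (-0.61 ± 0.19, adjusted p = 0.0906), close to the Adult 2 and Adult 3 values. A p above the threshold does not show that levels were alike.

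EAE microglia had higher Ctsc, Ctss, Ctsz and Ctsb and lower Ctsa than adult microglia, 5 of 8 tested cathepsins against 25.9% of all genes. Ctsc rose the most (log2 fold change 1.34 ± 0.13 (SE), adjusted p = 2.96e-06), at 1288 and 1267 CPM against 578, 576 and 576 CPM. Ctss (1.26 ± 0.31, adjusted p = 0.0148) was 15382 and 15303 CPM against 7141, 7321 and 7617 CPM. Both were without overlap, and both remained called with close pairs summed (adjusted p = 0.006 for Ctsc and 0.0494 for Ctss). Ctsc was called in every alternative (3.78e-23 to 0.006), and Ctss in all but that without Adult 1 (adjusted p = 0.111), where its log2 fold change was still 1.26. Ctsz (0.45 ± 0.14, adjusted p = 0.0261) and Ctsb (0.41 ± 0.12, adjusted p = 0.0194) rose by less. Both lost the call without Adult 1 (adjusted p = 0.166 and 0.113), with close pairs summed (0.268 and 0.283) and with library totals in place of TMM (0.164 and 0.205), and also without EAE 1 and without EAE 2. Over all alternatives their adjusted p ranged from 0.000261 to 0.268 and from 0.000855 to 0.283. Ctsa was lower (-0.40 ± 0.13, adjusted p = 0.0352), a call lost in 7 alternatives (0.00262 to 0.443 over all), namely without EAE 1, EAE 2, Aged 1 or Aged 2, with close pairs summed (adjusted p = 0.443), without a filter on low counts and with the other clustering. Ctsd (-0.23 ± 0.15, adjusted p = 0.304, 95% interval -0.53 to 0.07), Ctsh (0.79 ± 0.27, adjusted p = 0.0606) and Ctsl (0.24 ± 0.21, adjusted p = 0.435) did not pass the test, and DESeq2 called Ctsh (adjusted p = 0.0182). The median over the tested cathepsins was 0.43 (median over all genes -0.02). The microglial markers (7 genes) summed to 5139 and 5223 CPM in EAE microglia against 12076 to 12559 CPM in Adult. Their monocyte and macrophage markers (6 genes) summed to 277 and 296 CPM against 11.6 to 14.4 CPM, with none of the 6 at 0 in EAE and F10 at 0 in Adult. In Mac of the EAE libraries the latter summed to 8887 and 9201 CPM, and the part of such RNA in these differences was not tested.

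EAE PVM had higher Ctsh (log2 fold change 0.82 ± 0.18 (SE), adjusted p = 0.00206) and Ctsz (0.69 ± 0.15, adjusted p = 0.00132) and lower Ctsc (-0.47 ± 0.14, adjusted p = 0.0169) and Ctsd (-0.43 ± 0.15, adjusted p = 0.0457), 4 of 8 tested genes against 18.3% of all genes. Ctsh was 1224 and 1175 CPM against 766, 733 and 745 CPM in Adult, and Ctsc 1616 and 1781 CPM against 2443, 2762 and 2759 CPM. The Ctsd call was lost without Adult 1 (adjusted p = 0.303) and in most other alternatives (0.00494 to 0.488), and that of Ctsc without either EAE library and by DESeq2 (adjusted p = 0.0727). Ctsh and Ctsz kept theirs in every alternative but close pairs summed (adjusted p = 0.0767 and 0.119). Ctss at 5244 and 5639 CPM against 2721, 2387 and 2332 CPM missed the threshold (1.24 ± 0.36, adjusted p = 0.0589) and passed it by DESeq2 (adjusted p = 0.000229) and with close pairs summed (adjusted p = 0.0337). PVM of EAE were not divided into Lyve1+ and MHCII+ cells, so no value of Ctss is given for either population in EAE. The alternative without MHCII+ PVM therefore left out such cells from the untreated libraries only. Their monocyte and macrophage markers summed to 257 and 283 CPM against 35.9 to 86.9 CPM in adult PVM, and their PVM markers to 7179 and 7624 CPM against 8055 to 8508 CPM. The part of other macrophages in the differences was not tested. In EAE EC, Ctss (1.45 ± 0.38, adjusted p = 0.0261) and Ctsl (0.57 ± 0.15, adjusted p = 0.0144) were higher and Ctsh (-0.82 ± 0.18, adjusted p = 0.00662) and Ctsc (-0.52 ± 0.11, adjusted p = 0.00396) lower, 4 of 9 against 27.9% of all genes. Ctsh in EC, which lay at 314 and 302 CPM against 610.1, 647 and 614 CPM, encodes the aminopeptidase whose level in EC was 89.9% to 96.6% of the microglial one in Adult and 30.2% to 30.5% in EAE. Ctss in EC was 340.5 and 352 CPM in EAE against 213, 85.5 and 87.2 CPM in Adult, and without Adult 1 its log2 fold change was 2.18 (adjusted p = 0.000212). The share of the 9 myeloid genes in EC was 2.74% and 2.80% in EAE. That was above Adult 2 and Adult 3 (1.54% and 1.58%) and below Adult 1 (3.87%). The part of such RNA in the Ctss difference of EC was not tested. Ctsl lost its call without Adult 1 (adjusted p = 0.0554), and Ctsl and Ctss lost theirs with library totals in place of TMM (adjusted p = 0.0515 and 0.051). Leaving out EAE 1 or EAE 2 ended the calls of Ctsh, Ctsl and Ctss, and leaving out EAE 1 that of Ctsc (3.48e-06 to 0.201, 0.000184 to 0.204, 0.000133 to 0.255 and 0.00045 to 0.252 over all alternatives). Mural cells (2.28% of all genes called) and fibroblast-like cells (3.63%) gave no call in 9 tests each by edgeR or DESeq2. By edgeR, 0 and 1 of these cathepsins had an unadjusted p under 0.05, as did 983 of 6241 and 644 of 3334 of all genes. With close pairs summed, none of the EAE calls in PVM and EC was kept. Of the 13 EAE calls over all types, 4 were kept without EAE 1, 5 without EAE 2 and 8 without Adult 1, fits that called 9.42%, 9.15% and 14.4% of all genes.

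**Figure D5:**
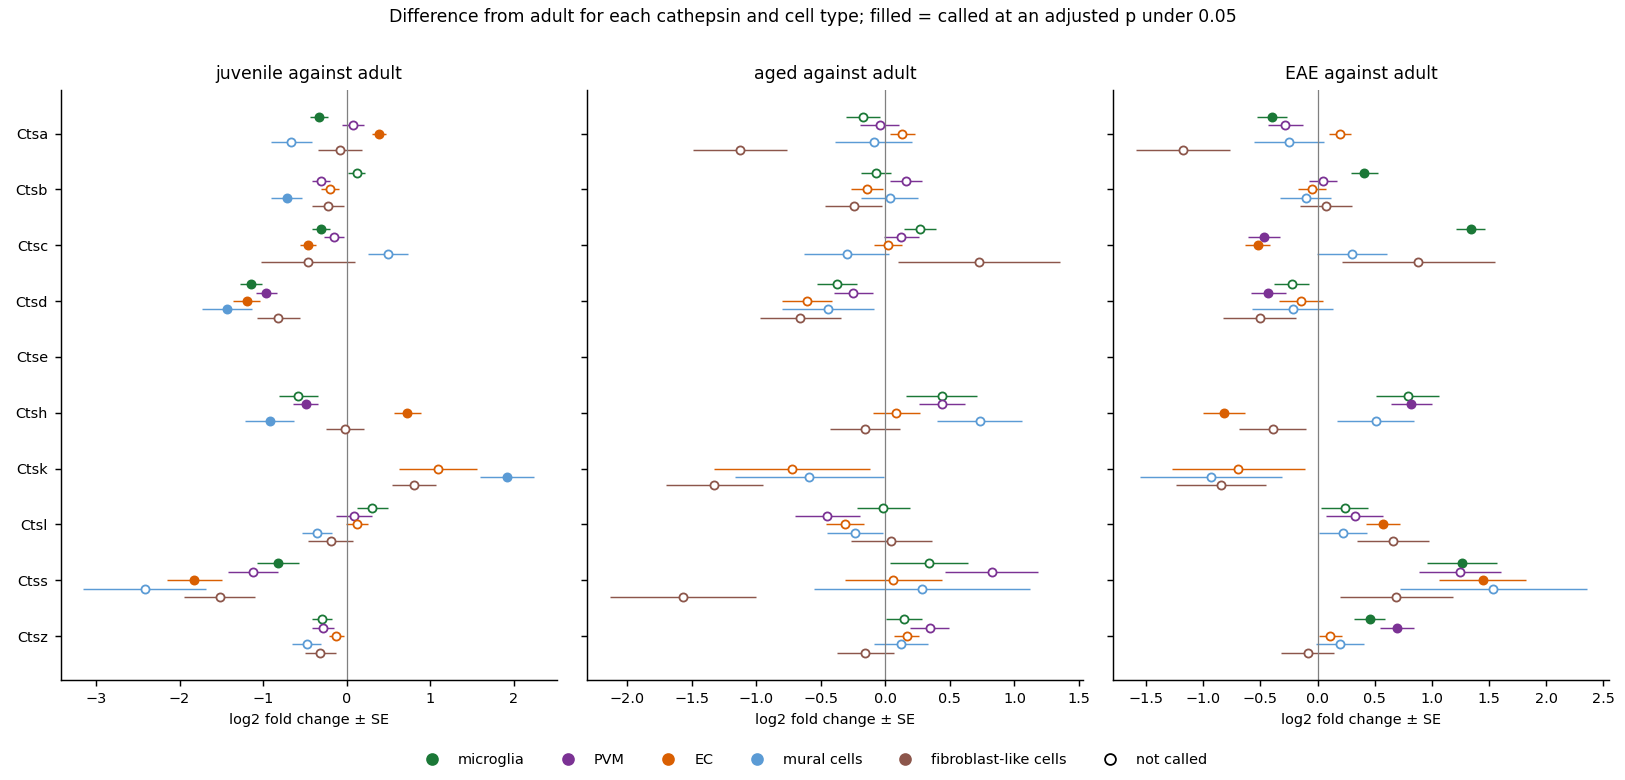
Log2 fold changes of each tested cathepsin against Adult for Juvenile, Aged and EAE in 5 cell types, with bars of 1 SE and filled symbols for an adjusted p under 0.05. Ctsd is below 0 in Juvenile in all 5 types, and the EAE value of Ctsc is above 0 in microglia and below 0 in PVM and EC.

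Whether a condition acted differently on a cathepsin in PVM or EC than in microglia was tested as an interaction in 1 fit, a test added after the single fits were seen. As stated above, its p-values measure the spread between these libraries, some of them close, which may be technical. For EAE, Ctsc differed between PVM and microglia (difference of log2 fold changes -1.763 ± 0.13, adjusted p = 7.33e-21; 6.99% of all genes called) and between EC and microglia (-1.965 ± 0.16, adjusted p = 6.42e-10; 14.5% called), and both calls were kept with close pairs summed (adjusted p = 5.54e-08 and 2.15e-06) and without each library in turn. Ctsh (-1.704 ± 0.15, adjusted p = 1.24e-09), Ctsb (-0.548 ± 0.17, adjusted p = 0.0257) and Ctsa (0.506 ± 0.15, adjusted p = 0.0203) also differed between EC and microglia in EAE, and with close pairs summed Ctsh kept its call (adjusted p = 3.54e-05) while Ctsb and Ctsa lost theirs (adjusted p = 0.34 and 0.382). For Juvenile, Ctsh (1.299 ± 0.13, adjusted p = 1.07e-08) and Ctsa (0.694 ± 0.13, adjusted p = 0.000337) differed between EC and microglia (16.3% called), and Ctsa (0.437 ± 0.12, adjusted p = 0.0103) and Ctsb (-0.404 ± 0.10, adjusted p = 0.0069) between PVM and microglia (5.19% called). With close pairs summed the EC calls were kept (adjusted p = 7.91e-05 and 0.0483) and the PVM calls lost (adjusted p = 0.289 and 0.293). For Aged, Ctss rose more in PVM than in microglia (0.484 ± 0.11, adjusted p = 0.00852; 0.972% called), although neither single fit called it, and the call was lost with close pairs summed (adjusted p = 0.686) and without Adult 3, Aged 1 or Aged 2 (adjusted p = 0.0867, 0.158 and 0.208). No cathepsin differed between EC and microglia by edgeR (0.626% called). Ctsc thus went in opposite directions in EAE, higher in microglia and lower in PVM and EC than in Adult.

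Inhibitors and partners of the cathepsins were read in the same fits, where the share of all genes called was 24.7%, 11.4%, 43.3%, 26.1% and 3.84% in juvenile microglia, PVM, EC, mural cells and fibroblast-like cells and 25.9%, 18.3%, 27.9%, 2.28% and 3.63% in those of EAE. In aged PVM and EC it was 3.22% and 5.51%. Of 9 cystatin and stefin genes (among them Stfa genes whose near-identical sequences make their counts uncertain), 2 to 4 passed the filter on low counts in a cell type. In EAE microglia Cst7, the cystatin F gene (2.55 ± 0.24, adjusted p = 3.03e-06), rose and Cst3, the cystatin C gene (-1.06 ± 0.23, adjusted p = 0.00528), fell. Cst3 was lower in Juvenile than in Adult in microglia (-1.45 ± 0.19, adjusted p = 0.00016), PVM (-1.02 ± 0.17, adjusted p = 0.00204), EC (-0.71 ± 0.19, adjusted p = 0.00985), mural cells (-1.23 ± 0.19, adjusted p = 0.000312) and fibroblast-like cells (-0.83 ± 0.18, adjusted p = 0.0337). The stefin B gene Cstb rose in PVM of EAE (0.69 ± 0.15, adjusted p = 0.00151) and was higher in juvenile than in adult PVM (0.50 ± 0.13, adjusted p = 0.014). Cst6 was higher in juvenile EC (1.49 ± 0.35, adjusted p = 0.00463). In EC of EAE Cst6 fell (-3.31 ± 0.56, adjusted p = 0.00116) and Cst7 rose (3.03 ± 0.75, adjusted p = 0.0109), the latter next to the myeloid RNA given above. The list of activation and transport held Lgmn, which encodes the protease legumain, Psap, Grn and the sorting receptors Sort1, M6pr and Igf2r. The list had 2 higher and 0 lower of 6 tested in EAE microglia, Grn (0.80 ± 0.15, adjusted p = 0.00121), which encodes progranulin, and Psap (0.59 ± 0.14, adjusted p = 0.0064), which encodes prosaposin. Grn rose in PVM of EAE as well (0.67 ± 0.13, adjusted p = 0.000571), where the list had 1 higher and 0 lower of 5 tested. In juvenile microglia the list had 0 higher and 2 lower of 6 tested, Igf2r (-1.91 ± 0.53, adjusted p = 0.0169) and Psap (-0.35 ± 0.12, adjusted p = 0.0444), and in aged PVM 1 higher and 0 lower of 5 tested, Psap (0.58 ± 0.15, adjusted p = 0.024). Juvenile PVM had 1 higher and 1 lower of 5 tested, Lgmn (0.37 ± 0.12, adjusted p = 0.0354) and Psap (-0.87 ± 0.13, adjusted p = 3.1e-05). Psap was the lower gene of the list in juvenile mural cells (-1.15 ± 0.17, adjusted p = 0.000215) and fibroblast-like cells (-0.90 ± 0.16, adjusted p = 0.0143) as well, the only call of the list there. EC had 3 higher and 1 lower of 6 tested in Juvenile, with Igf2r (0.89 ± 0.18, adjusted p = 0.00153) and M6pr (0.46 ± 0.11, adjusted p = 0.00661) higher. In aged EC the list had 0 higher and 1 lower of 6 tested, Igf2r (-0.96 ± 0.22, adjusted p = 0.0254). EAE EC had 1 higher and 1 lower, Sort1 (0.60 ± 0.14, adjusted p = 0.0077) and Psap (-0.54 ± 0.11, adjusted p = 0.00368). Calls of this list thus went in both directions.

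Both partners of Ctsa in its complex, Glb1 (-0.54 ± 0.18, adjusted p = 0.0387) and Neu1 (-0.46 ± 0.12, adjusted p = 0.0102), were lower in juvenile microglia. Ctsa was called lower there too, a call kept in 8 alternatives and lost in 13. In juvenile EC, Glb1 was higher (0.74 ± 0.13, adjusted p = 0.000764) and Neu1 lower (-0.61 ± 0.13, adjusted p = 0.0022), next to the higher Ctsa. Neu1 was lower in juvenile PVM (-0.76 ± 0.17, adjusted p = 0.00273), juvenile mural cells (-1.11 ± 0.26, adjusted p = 0.00576) and aged EC (-0.60 ± 0.15, adjusted p = 0.0357), and Glb1 in EAE EC (-0.93 ± 0.16, adjusted p = 0.00104). Among genes for lysosomal membrane proteins and hydrolases, juvenile microglia had 5 higher and 5 lower of 19 tested (24.7% of all genes called) and EAE microglia 1 higher and 5 lower of 19 tested (25.9%). Npc2, a cholesterol carrier gene, rose in EAE microglia (1.08 ± 0.11, adjusted p = 7.91e-06). PVM had 1 higher and 2 lower of 19 tested in Juvenile (11.4% of all genes called) and 1 higher and 1 lower of 19 tested in EAE (18.3%), with Npc2 again higher in EAE (1.06 ± 0.13, adjusted p = 7.85e-07). EC had 4 higher and 4 lower of 19 tested in Juvenile, near the 43.3% of all genes called, and 3 higher and 4 lower of 19 tested in EAE (27.9%), with Hexa lower in EAE (-0.80 ± 0.10, adjusted p = 0.000119). Mural cells, whose makeup differed as given above, had 0 higher and 6 lower of 16 tested in Juvenile (26.1% of all genes called). Of the 3 transcription factor genes, Mitf was lower in juvenile microglia (-0.73 ± 0.22, adjusted p = 0.028) and EC (-1.60 ± 0.37, adjusted p = 0.0045), and no other call was made in microglia, PVM or EC. Of the other cathepsins (Ctsf, Ctso, Ctsw and Ctsg), Ctsf was higher in juvenile microglia (0.57 ± 0.16, adjusted p = 0.0169) and Ctsw higher in juvenile EC (3.56 ± 0.24, adjusted p = 1.29e-06). Ctso was lower in juvenile EC (-0.41 ± 0.14, adjusted p = 0.0298). In juvenile mural cells, whose makeup differed as given above, Ctsf (-0.82 ± 0.24, adjusted p = 0.0165) and Ctso (-0.81 ± 0.26, adjusted p = 0.0315) were lower, and no other call of this list was made against Adult.

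MHC class II genes and Cd74, which encodes the invariant chain cut by cathepsin S, had 7 higher and 0 lower of 7 tested in EAE microglia (25.9% of all genes called), where Cd74 (5.69 ± 0.25, adjusted p = 1.04e-08) and H2-Eb1 (5.58 ± 0.24, adjusted p = 2.92e-09) were the largest. In juvenile microglia the list had 0 higher and 4 lower of 7 tested (24.7% of all genes called), with H2-Aa (-5.18 ± 0.23, adjusted p = 3.75e-09). Monocyte and macrophage markers moved with the list in EAE, at 277 and 296 CPM summed against 11.6 to 14.4 CPM in adult microglia and 257 and 283 CPM against 35.9 to 86.9 CPM in adult PVM, and Mac of EAE were called higher than microglia for 7 of these 7 genes (69.1% of all genes called in either direction). The part of such RNA was not tested. PVM had 3 higher and 0 lower of 7 tested in EAE, led by Ciita (2.99 ± 0.59, adjusted p = 0.000603), 2 higher and 0 lower of 7 tested in Aged, H2-DMa (1.94 ± 0.23, adjusted p = 9.56e-05) and H2-DMb1 (1.70 ± 0.16, adjusted p = 1.4e-07), and 0 higher and 5 lower of 7 tested in Juvenile. Of all genes, 18.3%, 3.22% and 11.4% were called in PVM of EAE, Aged and Juvenile. In aged PVM the monocyte and macrophage markers (158 and 164 CPM) and those of DC (1046 and 1216 CPM against 139 to 213 CPM) were above Adult as well. In aged Lyve1+ PVM nearly all of the DC sum was Cd209a, as given above, a gene that the study lists for Lyve1+ PVM. EC had 6 higher and 0 lower of 6 tested in EAE (27.9% of all genes called), with Cd74 (3.66 ± 0.66, adjusted p = 0.00668), and 0 higher and 6 lower of 6 tested in Juvenile (43.3% of all genes called), with H2-Ab1 (-3.30 ± 0.28, adjusted p = 1.06e-05). The 9 myeloid genes in EC summed to 245 to 528 CPM in Juvenile, below the 561 to 1339 CPM of Adult. In EAE they summed to 1257 and 1285 CPM, above Adult 2 and Adult 3 (561 and 587 CPM) and below Adult 1 (1339 CPM). The 6 monocyte and macrophage markers averaged 1.1 to 1.48, 3.41 to 9.49 and 16.5 to 19.6 CPM per gene in EC of the same groups, and the part of such RNA in the list's change was not tested. Summed over the 5 types, the 7 lists gave 77 calls of 185 tests in Juvenile (41.6%, against 26.6% of all genes), 6 in Aged (3.24% against 2.91%) and 47 in EAE (25.4% against 19.9%). With close pairs of libraries summed they gave 28, 3 and 23 calls of 200 tests each (14%, 1.5% and 11.5%, against 8.89%, 0.0807% and 4.02% of all genes).

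The likeness of patterns was described over 149 sums of a library and a cell type as Pearson's r of log2(CPM + 1), among 12484 genes, with sums that share libraries and so are not independent. For Ctss the nearest genes were C1qb (r = 0.89), Ly86 (r = 0.87) and Mpeg1 (r = 0.86), and for Ctsd Trem2 (r = 0.76), C1qc (r = 0.76) and Lgmn (r = 0.75). For Ctsb they were Lgmn (r = 0.88), Hexa (r = 0.87) and Asah1 (r = 0.87), for Ctsa Lgmn (r = 0.83), Hexa (r = 0.81) and Asah1 (r = 0.79) and for Ctsz Grn (r = 0.83), Lgmn (r = 0.79) and Hexa (r = 0.77). Ctsc was nearest to Ms4a6d (r = 0.80), Ms4a6c (r = 0.80) and Clec4a1 (r = 0.79). Ctsh was nearest to Grn (r = 0.70), Rnase4 (r = 0.69) and Ralb (r = 0.67) and Ctsl to Scoc (r = 0.76), Snx24 (r = 0.75) and Acp2 (r = 0.75). Ctsk was nearest to Foxd1 (r = 0.80), Twist1 (r = 0.77) and Fam26e (r = 0.76), and Ctse to Hemgn (r = 0.71), Kel (r = 0.68) and Rhag (r = 0.65).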

How the data were processed

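Single cells of myelin-depleted mouse cortex were sequenced from 11 libraries with a droplet 3' method. The deposited files hold raw UMI counts per gene and cell, which the authors made, per the submitters' processing notes, with bcl2fastq 2.19.1.403, UMI-tools 0.5.3, STAR 2.5.3a on mm10 and featureCounts 1.6.1. Library totals were 15755504 to 34326349 UMIs, and intervals and floors cover counting error only.

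Cells with over 500 and under 6000 genes and under 25% mitochondrial counts were kept, as in the study, which removes cells of few genes. Seurat 5.3.0 (R 4.3.3) clustered them on 1979 variable genes, without the cathepsins and the lysosomal lists, with 30 principal components at resolution 0.8. A cluster was named where its marker score was at least 2.5 and set aside as mixed (1077 cells) where another type reached 0.6 of that score, limits chosen after the clusters were seen. PVM were clustered again with 12 components at resolution 0.5, and MHCII+ clusters had at least 5000 CPM of class II markers. Scrublet in scanpy 1.11.5 marked 818 of 50625 cells (1.616%) as doublets, and these were kept.

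Counts were summed per library and cell type (at least 10 cells) and tested with edgeR 4.0.16 (quasi-likelihood test, TMM, filter on low counts, Benjamini-Hochberg over all genes tested), with Adult 2 and Adult 3 as 1 sample and, between cell types, the library as a block. The study tested single cells, which are not replicates, so its test was not used. Scripts were tested on simulated data. Alternatives were DESeq2 1.42.0, other scaling, no filter, other clustering, doublets removed, a replicate block, close libraries summed and each library left out. Positions are from GENCODE M21, and promoter windows (250 bases before to 50 after a start site) from RefSeq, GRCm38.p6, for 7 of the 10 genes (not Ctsb, Ctse and Ctsh). The genes and lists were chosen with earlier results of these data known, and adjusted p-values are over all genes. Cathepsins are all described, and of each list at most 2 called genes with the largest change per comparison are named.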

Additional observations from a re-analysis of the deposited data

Results flagged for a closer look

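In fibroblast-like cells, Juvenile 4 held Ctsh at 350.4 CPM, below the 417 to 418 CPM of the other 3 Juvenile libraries, a gap of 0.979 of the range, above Dixon's limit for 4 samples. This was 1 of 43 groups of 4 libraries examined, and chance marks about 1 in 20.

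The difference between adult and another condition was not the same in 2 cell types for several cathepsins, by edgeR's test of the interaction. In EAE the log2 fold change of Ctsc differed by -1.763 in PVM and by -1.965 in EC from that in microglia. EAE also gave differences of EC from microglia of -1.704 for Ctsh, -0.548 for Ctsb and 0.506 for Ctsa. In Juvenile, EC differed from microglia by 1.299 for Ctsh and 0.694 for Ctsa, and PVM from microglia by 0.437 for Ctsa and -0.404 for Ctsb. In Aged, PVM differed from microglia by 0.484 for Ctss. The differences of Ctsb and Ctsa in PVM (Juvenile) and in EC (EAE) and that of Ctss in Aged were lost with close pairs of libraries summed, and the other 5 were kept.

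Ctse, near 0 in the myeloid and vascular types, had a median of 150.2 CPM in red blood cells over the 5 libraries with at least 10 of these cells, which no comparison used.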

How the results depend on the processing

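SMC alone, PVM without MHCII+ cells, Mac without 1 cluster, library totals and the tests of differences between cell types were added after seeing the data. Of 1515 values of single called genes under an alternative, 1347 kept their direction and their side of the threshold, 165 kept the direction only and 3 changed direction: Ctsb between mural cells and EC with SMC alone (-0.0665), and Ctsc (-0.1841) and Ctsh (-0.1032) between Mac and microglia with library totals. With close pairs of libraries summed, calls fell to 5 for Juvenile, 3 for EAE (8.89% and 4.02% of all genes called), 54 in the lists, 0 for both the Juvenile and the Aged differences of PVM from microglia (2.79% and 0.412%) and 2 for the EAE difference of EC from microglia (6.07%). Without a filter on low counts, 2 calls were made for Aged (2.66% of all genes called), with SMC alone 3 between mural cells and EC (43%), and with library totals 8 (47.5%). Leaving out each library in turn gave 0 to 1 calls for Aged, 4 to 15 for EAE and 10 to 19 for Juvenile, where 0.325% to 3.15%, 9.15% to 20.5% and 18.6% to 26.5% of all genes were called. For the differences from microglia it gave 1 to 2 calls (PVM, Juvenile), 0 to 3 (PVM, Aged), 2 to 4 (EC, Juvenile) and 2 to 5 (EC, EAE), where 3.89% to 4.84%, 0.307% to 1.46%, 10.6% to 15.5% and 8.27% to 14.8% of all genes were called. Counts between cell types stayed within 1.5 times under all other alternatives, and the cause of these shifts was not tested.

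With the replicate number as a block, 21 pairs were called for Juvenile, 3 for Aged and 14 for EAE, where 25.8%, 4.78% and 21.2% of all genes were called over the 5 types (26.6%, 2.91% and 19.9% without it). This fit takes all 11 libraries as separate, which without the block called 21, 0 and 15 pairs and 30.5%, 5.1% and 23.5% of all genes. Libraries with the same number did not deviate together (r of -0.19 to 0.20 in EC and -0.12 to 0.13 in microglia over 13 pairs each, of which 1 was over 0.1 in either type), so the numbers were not taken to pair the libraries. In comparisons within EAE, leaving out 1 of 2 libraries could not be fitted, and the comparison of PVM populations was not run with the other clustering. The Aged and EAE groups of 2 close libraries each, and sums of as few as 10 cells, limit what could be called.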
